A study of Mus musculus with 2 samples.

Results

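Dense clusters of NFKB2 regions were stretches of chromosome in which at least 3 NFKB2 intervals lay close to each other in cultured mouse kidney tubule cells. They were chosen by the positions of the intervals in the NFKB2 list. On chromosomes 1 to 19, neighbours with a gap of 12.5 kb or less were chained, and the intervals of chains with 3 or more were kept. This gave 675 chains holding 2562 intervals, which were 18.2% of the 14060 NFKB2 intervals on those chromosomes, in a list of 14217. The remaining 11498 intervals on chromosomes 1 to 19 comprised 8606 that stood alone and 2892 that stood in pairs.

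The study mapped NFKB2 and ELF3 by CUT&RUN, in which an antibody held on chromatin directs a nuclease to cut out the DNA around the bound protein, in primary renal tubular epithelial cells from wild-type mouse kidney. Both libraries, 1 for NFKB2 and 1 for ELF3, came from cells treated with TNFα plus IFNγ and carry the same batch label, so the 2 groups shared genotype, tissue and treatment and differed in the antibody. The labels name no age, dose, time or number of animals, and IgG is named as a negative control whose values were not analysed here. With 1 library per antibody no difference below has a replicate check, regions are not replicates, and the intervals given cover counting error only. Cell type markers could not be checked, because the lists hold positions and scores without gene names.

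NFKB2 is a member of the NF-κB family that is made as a precursor, p100, and processed to p52, which enters the nucleus most often with RELB. Its processing is driven by a kinase cascade downstream of several TNF-family receptors, and NF-κB factors act on genes for chemokines, adhesion molecules and their own inhibitors in injured tubule cells. ELF3 is an ETS factor of epithelia that binds DNA at a GGAA core and is itself a known NF-κB target. Runs of closely spaced factor-bound regions are commonly described as enhancer clusters, and the joining distance used here is the one in common use for them. Gene names could not be set beside the positions, so each locus is given by chromosome, start and end as the files number them, counted from 1.

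The chains were mostly short. There were 414 chains of 3 intervals, 133 of 4, 63 of 5, 32 of 6, 14 of 7, 7 of 8, 5 of 9, 2 of 10, 3 of 11, 1 of 14 and 1 of 15. The median span was 15.9 kb (quartiles 11.4 and 21.2 kb), and spans ran between 3.14 and 83.0 kb. Neighbouring intervals within a chain were separated by a median of 4.81 kb (quartiles 2.27 and 8.04 kb). NFKB2 intervals filled a median of 12.9% of a span (quartiles 8.50% and 20.2%). The largest gap that was joined measured 12499 bp and the smallest that was not joined 12504 bp. Within 500 bp of the limit, 121 gaps lay under it and 97 over it, so the edge of the set did not fall in an empty stretch of the gap distribution.

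**Figure D1:**
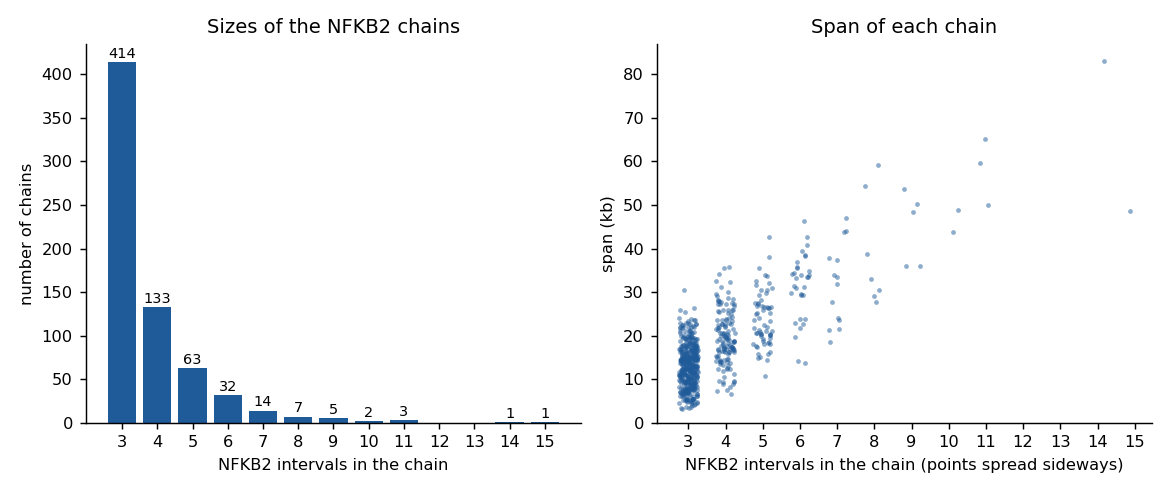
Sizes of the NFKB2 chains on chromosomes 1 to 19, as the number of chains by intervals per chain (bars, left), and the span of each chain in kb by intervals per chain (1 point a chain, right). Chains of 3 made up 414 of the 675, the largest held 15 intervals, and the longest span was 83.0 kb.

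The chains were spread over every chromosome from 1 to 19, but in unequal numbers. Chromosome 11 held 83 chains, 12.3% of them, and 26.6% of its NFKB2 intervals were chained (321 of 1207, exact 95% interval 24.1% to 29.2%). Chromosomes 15, 7, 19 and 8 followed with 22.3%, 22.1%, 21.9% and 21.5% of their intervals chained, and the 95% interval of each overlapped that of its neighbour in this order. At the other end stood chromosome 18 with 7 chains and 8.51% of its intervals (33 of 388, 5.93% to 11.7%), followed by chromosome 16 with 12.8% and chromosome 1 with 13.9%. Chromosome 11 was also the one with most NFKB2 intervals for its ELF3 regions, 29.7 for every 100, against 15.9 on chromosome 18. The exact 95% intervals treat NFKB2 intervals as separate draws, but membership comes in whole chains. The 321 chained intervals of chromosome 11 are 83 chains, and the 33 of chromosome 18 are 7. The 95% intervals are therefore too narrow even for counting error, and they do not settle the order of the chromosomes. Closer spacing raises the chained share by construction, and the part of interval density along each chromosome was not tested.

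**Figure D2:**
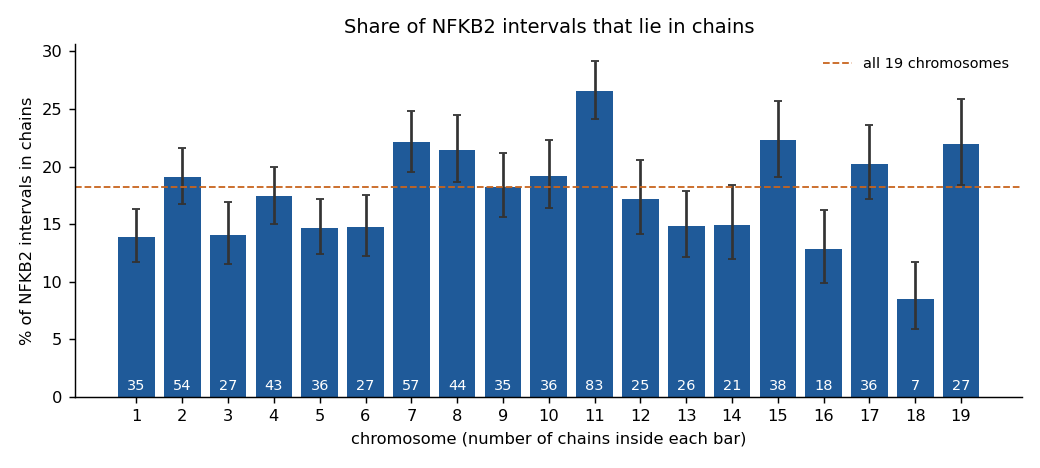
Share of the NFKB2 intervals of each chromosome that stood in chains, in percent (bars), with exact 95% intervals for counting error, the number of chains inside each bar, and a dashed line at the 18.2% of all 19 chromosomes. Chromosome 11 was highest at 26.6% and chromosome 18 lowest at 8.51%. The 95% intervals treat NFKB2 intervals as separate draws although they are chained in groups, so they are too narrow.

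Distances between chains were taken without a comparison set, so they do not show whether chains lay closer together than other intervals. The rule splits a stretch at any gap over 12.5 kb, and the closest chains were 12.6 kb apart. The nearest other chain was a median of 299 kb away (quartiles 73.6 and 1198 kb), 208 of the 675 chains had another within 100 kb, and 487 had another within 1 Mb.

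The strength of an interval is given as the number of DNA fragments covering its summit, its highest point, recovered from the deposited fold and −log10 p. The local background, the number of fragments that the peak caller took as the chance level, is given relative to the lowest background of the same library, called the floor. Chained intervals had a median of 17 NFKB2 fragments at the summit (quartiles 13 and 24, range 8 to 9084). Intervals outside chains had 16 (quartiles 13 and 21, range 8 to 51275). The chained interval of 9084 fragments had a background of 4828 times the floor and a deposited fold of 1.38. The deposited fold over background, the authors' own value, had a median of 7.08 in chains and 6.69 outside. Chained intervals were wider, with a median width of 408.5 bp, against 319 bp outside chains, and upper quartiles of 851 and 558 bp. The difference was clearest in the upper tail. Intervals over 2 kb wide made up 4.68% of those in chains (120 intervals, exact 95% interval 3.90% to 5.57%) and 1.11% of those outside (128 intervals, 0.930% to 1.32%). Intervals of 50 or more fragments made up 3.83% in chains (98 intervals, 3.12% to 4.64%) and 1.85% outside (213 intervals, 1.61% to 2.12%). All of these values come from the list that chose the members, so they describe the chains and support nothing about them.

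The share with a background of at least 2 times the floor was 8.24% in chains (211 intervals, 7.20% to 9.37%) and 7.56% outside (869 intervals, 7.08% to 8.06%), and the 95% intervals overlap. At least 1 such interval was present in 163 chains, and 5 chains consisted of such intervals alone. The part of raised background in the chains named below was not tested.

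ELF3 was measured in a library that the rule did not use. Of the 2562 chained NFKB2 intervals, 2500 overlapped an ELF3 region by at least 1 bp, 97.6% (exact 95% interval 96.9% to 98.1%), against 96.8% of those outside chains (11129 of 11498, 96.5% to 97.1%) and 96.9% of all NFKB2 intervals on chromosomes 1 to 19. The share in chains was thus close to that of NFKB2 intervals at large. In 619 of the 675 chains every interval lay on ELF3, and 62 chained intervals in the other chains did not.

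The chains differed from the other intervals in how often several NFKB2 intervals lay on 1 ELF3 region. Of the chained intervals on ELF3, 427 of 2500 (17.1%) shared an ELF3 region with another NFKB2 interval, against 270 of 11129 outside chains (2.43%). Chaining selects close neighbours, so the rule bears on this share. The NFKB2 summit lay within 100 bp of an ELF3 summit in 68.0% of the chained intervals on ELF3 (1700 of 2500, 66.1% to 69.8%), against 77.2% of those outside chains (8597 of 11129, 76.5% to 78.0%). Sharing lowers this share by construction, because no gap between NFKB2 intervals was under 1006 bp and an ELF3 region has 1 summit, to which only 1 of them can be close. Among intervals whose ELF3 regions met no other NFKB2 interval, a subset added after the values were seen, 74.7% had close summits in chains (1549 of 2073, 72.8% to 76.6%) and 78.2% outside (8491 of 10859, 77.4% to 78.97%). These 95% intervals did not overlap. The subset also left out many wide ELF3 regions. On regions of 2 kb or wider it dropped 399 of 762 chained intervals and 242 of 1649 others. How much of the difference goes with sharing and how much with width was not tested. In that subset the shares were 77.8% in chains (75.8% to 79.8%) and 80.2% outside (79.4% to 81.0%) on ELF3 regions under 2 kb. On wider ones they were 60.1% in chains (54.8% to 65.1%) and 64.5% outside (61.9% to 67.0%). The share was thus lower in chains in both width classes. Within each class the 95% intervals overlapped, which does not show that the shares are equal. The ELF3 regions under chained intervals had a median width of 1218 bp, against 898 bp outside chains, a measure that counts a shared broad region once for each of its intervals. Without sharing the medians were 959 bp in chains and 875 bp outside.

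ELF3 was not stronger in the chains. The paired ELF3 region, the overlapping one with most fragments, had a median of 41 fragments at its summit under chained intervals (quartiles 27 and 59) and 44 under the others (quartiles 29 and 65). The ratio of NFKB2 to ELF3 fragments, corrected for the depth of the 2 libraries, had a median of 0.447 in chains (order-statistic 95% interval 0.437 to 0.458) and 0.374 outside (0.370 to 0.379). It exceeded 1 in 10.6% of the chained intervals on ELF3 (264 of 2500, 9.38% to 11.8%) and in 4.83% of the others (537 of 11129, 4.43% to 5.24%). It lay under 0.5 in 58.4% of those in chains and in 70.7% of the others, so in chains, too, most intervals held fewer NFKB2 than ELF3 fragments.

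The higher ratio of chained intervals was present at every level of ELF3. Where ELF3 had 28 fragments or fewer, the median ratio was 0.719 in chains and 0.639 outside. With 29 to 44 ELF3 fragments it was 0.447 and 0.411, with 45 to 64 it was 0.359 and 0.312, and with 65 or more it was 0.287 and 0.238, in chains and outside in each case. In the top class this corresponded to a median of 24 NFKB2 fragments in chains and 21 outside. The ratio was also higher in chains where both libraries had their background at the floor, 0.458 (1525 intervals) against 0.377 (7069 intervals), and where the summits lay within 100 bp, 0.452 (0.442 to 0.466) against 0.371 (0.366 to 0.376). Among intervals whose ELF3 regions met no other NFKB2 interval it was 0.479 in chains (0.458 to 0.487) and 0.376 outside (0.373 to 0.383). The NFKB2 side of the ratio comes from the list that chose the members, and 1 library of each antibody cannot show how far the ratio would vary between cultures.

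The values are given from intervals standing alone through pairs and chains of 3, 4, 5 or 6, and 7 or more. The share of intervals on ELF3 with summits within 100 bp was 78.6%, 73.3%, 69.6%, 68.6%, 67.3% and 61.2%. Sharing of ELF3 regions was more frequent in the largest class, 27.7% of the intervals on ELF3 in chains of 7 or more and 9.35% in pairs, and it lowers this share by construction. Without shared regions the shares were 78.6%, 76.8%, 74.95%, 76.0%, 74.1% and 72.1%, and the 95% interval of each class overlapped that of the next. That of intervals standing alone (77.7% to 79.5%) lay above that of chains of 3 (72.2% to 77.6%) and overlapped those of the other classes. The median width of the paired ELF3 region, which counts shared regions repeatedly, was 872, 998, 1127, 1193, 1298.5 and 1746.5 bp, and without shared regions it was 871, 892, 906, 899, 995 and 1195 bp. The median ratio was 0.369, 0.395, 0.414, 0.495, 0.479 and 0.448. Its 95% intervals were 0.461 to 0.527 in chains of 4, 0.454 to 0.506 in chains of 5 or 6 and 0.405 to 0.491 in chains of 7 or more, so these classes overlapped and have no settled order, while that of chains of 4 lay above that of chains of 3 (0.402 to 0.430). A background of 2 times the floor or more was found in 45 of the 281 intervals in chains of 7 or more, against 25 of the 532 in chains of 4, and its part in these values was not tested.

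**Figure D3:**
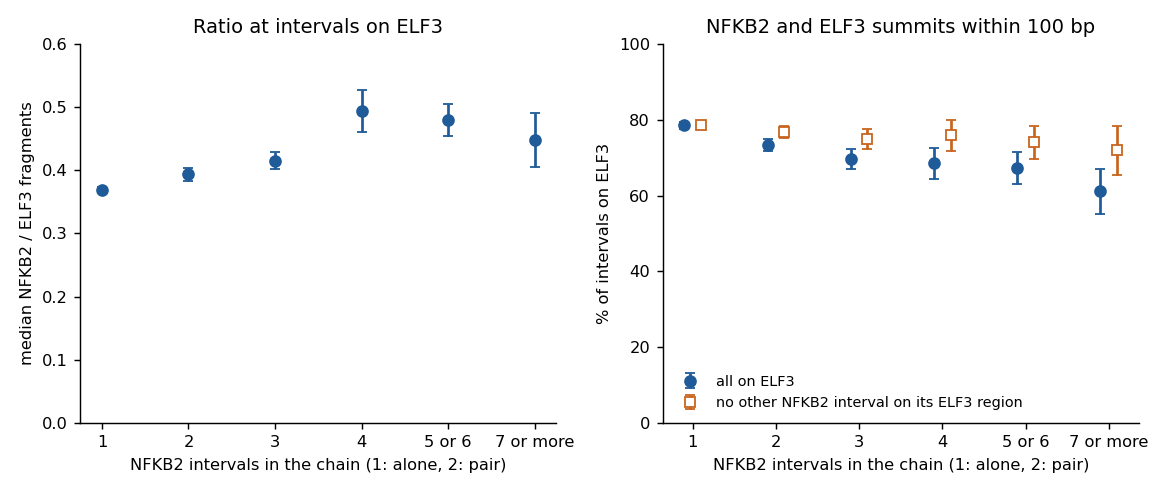
NFKB2 intervals on chromosomes 1 to 19 by the number of intervals in their chain, as the median NFKB2 over ELF3 ratio (left) and the share of intervals on ELF3 with summits within 100 bp, in percent (right; circles for all, squares for those with no other NFKB2 interval on their ELF3 region), with 95% intervals. Intervals that share an ELF3 region cannot all be close to its summit, and without them the share was 78.6% for intervals alone and 72.1% in chains of 7 or more, against 61.2% in that class with them.

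Seen from the ELF3 side, 2739 ELF3 regions met the spans, a median of 4 per chain (quartiles 3 and 5, range 0 to 15). Of these, 2278 overlapped an NFKB2 interval, 83.2% (81.7% to 84.6%), against 17.2% of the 63963 ELF3 regions outside the spans (11007 regions, 16.9% to 17.5%) and 19.9% of all ELF3 regions on chromosomes 1 to 19. The rule itself raises the share inside, because a span begins and ends at an NFKB2 interval and holds at least 1 more. Without the ELF3 regions at the end intervals, 970 of 1431 overlapped NFKB2, 67.8% (65.3% to 70.2%), a share that still contains the inner intervals that the rule required. ELF3 regions shared with NFKB2 inside the spans had a median of 39 fragments (quartiles 26 and 56). The 461 ELF3 regions without NFKB2 inside the spans were weak, at a median of 15 (quartiles 10 and 22, highest 87). Outside the spans the medians were 44 with NFKB2 and 19 without it.

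With the end intervals left out, the share of ELF3 regions that overlapped NFKB2 inside the spans followed ELF3 strength. The inside shares still contain the inner NFKB2 intervals that the rule required. The rule thus raises them above the outside shares, and that excess supports nothing about the chains. Of ELF3 regions under 20 fragments, 137 of 447 overlapped NFKB2 inside the spans, 30.6% (26.4% to 35.2%), and 1143 of 28577 outside (3.78% to 4.23%). Between 20 and 39 fragments the shares were 74.1% inside and 16.2% outside, and between 40 and 79 fragments they were 94.1% inside and 42.7% outside. At 80 or more fragments 64 of 65 overlapped NFKB2 inside the spans, 98.5% (91.7% to 99.96%), against 73.6% outside (1505 of 2044, 71.7% to 75.5%). ELF3 regions left without an NFKB2 interval were thus of lower ELF3 signal than those with one, inside the spans and outside them alike.

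The count of ELF3 regions exceeded that of NFKB2 intervals in 248 chains, equalled it in 292 and was smaller in 135. In 172 chains fewer distinct ELF3 regions than NFKB2 intervals were paired, since several NFKB2 intervals lay on 1 broad ELF3 region. There were 191 ELF3 regions that each held at least 2 chained intervals, 427 chained intervals in all, and their median width was 4105 bp (range 1534 to 89669 bp). In 18 chains every paired interval lay on the same ELF3 region, and 16 spans fell wholly within ELF3 regions. Intervals on 1 ELF3 region share its value, so their ratios are not separate measurements of ELF3.

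Within 50 kb of the centre of a chain there was a median of 9 ELF3 regions (quartiles 7 and 12), against 6 within 50 kb of an NFKB2 summit outside chains (quartiles 4 and 8). The first count includes the ELF3 regions under the chain's own intervals. ELF3 regions that met no NFKB2 interval numbered a median of 4 in both settings (quartiles 3 and 6 around chains, 2 and 6 around the other intervals). This count leaves out the ELF3 regions shared with NFKB2, which the rule makes more frequent at chains. It therefore cannot show whether ELF3 regions are denser around chains.

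Chaining the ELF3 list by the same rule gave 7221 chains with 49.5% of its regions, the largest of 30, and 658 NFKB2 chains (97.5%) met 639 of them (8.85%). Because that list is far longer, the 14060 ELF3 regions of highest −log10 q were also chained. They gave 335 chains with 8.20% of the regions, the largest of 10 and 6 with 7 or more, against 675 chains, 18.2%, 15 and 33 for NFKB2. With equal numbers, 134 NFKB2 chains (19.9% of them) met 132 of these ELF3 chains (39.4% of them). The strongest ELF3 regions were thus less often in chains than NFKB2 intervals, and most NFKB2 chains did not coincide with their chains. The NFKB2 list was not ranked in this comparison while the ELF3 list was, so the 2 sets differ in how they were drawn.

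Within a chain the strongest interval had a median of 2.14 times the fragments of the weakest (quartiles 1.63 and 2.93, range 1.05 to 13.8). In chains of 3 the strongest interval held a median of 43.6% of the summed fragments. A single strongest interval was present in 638 chains, and in 369 of them it lay on the strongest ELF3 region of the span, 57.8% (53.9% to 61.7%). The share was 62.0% in chains of 3 (241 of 389), 58.7% in chains of 4 (74 of 126) and 43.9% in chains of 5 or more (54 of 123, 35.0% to 53.1%). Longer chains also hold more ELF3 regions to choose among.

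**Figure D4:**
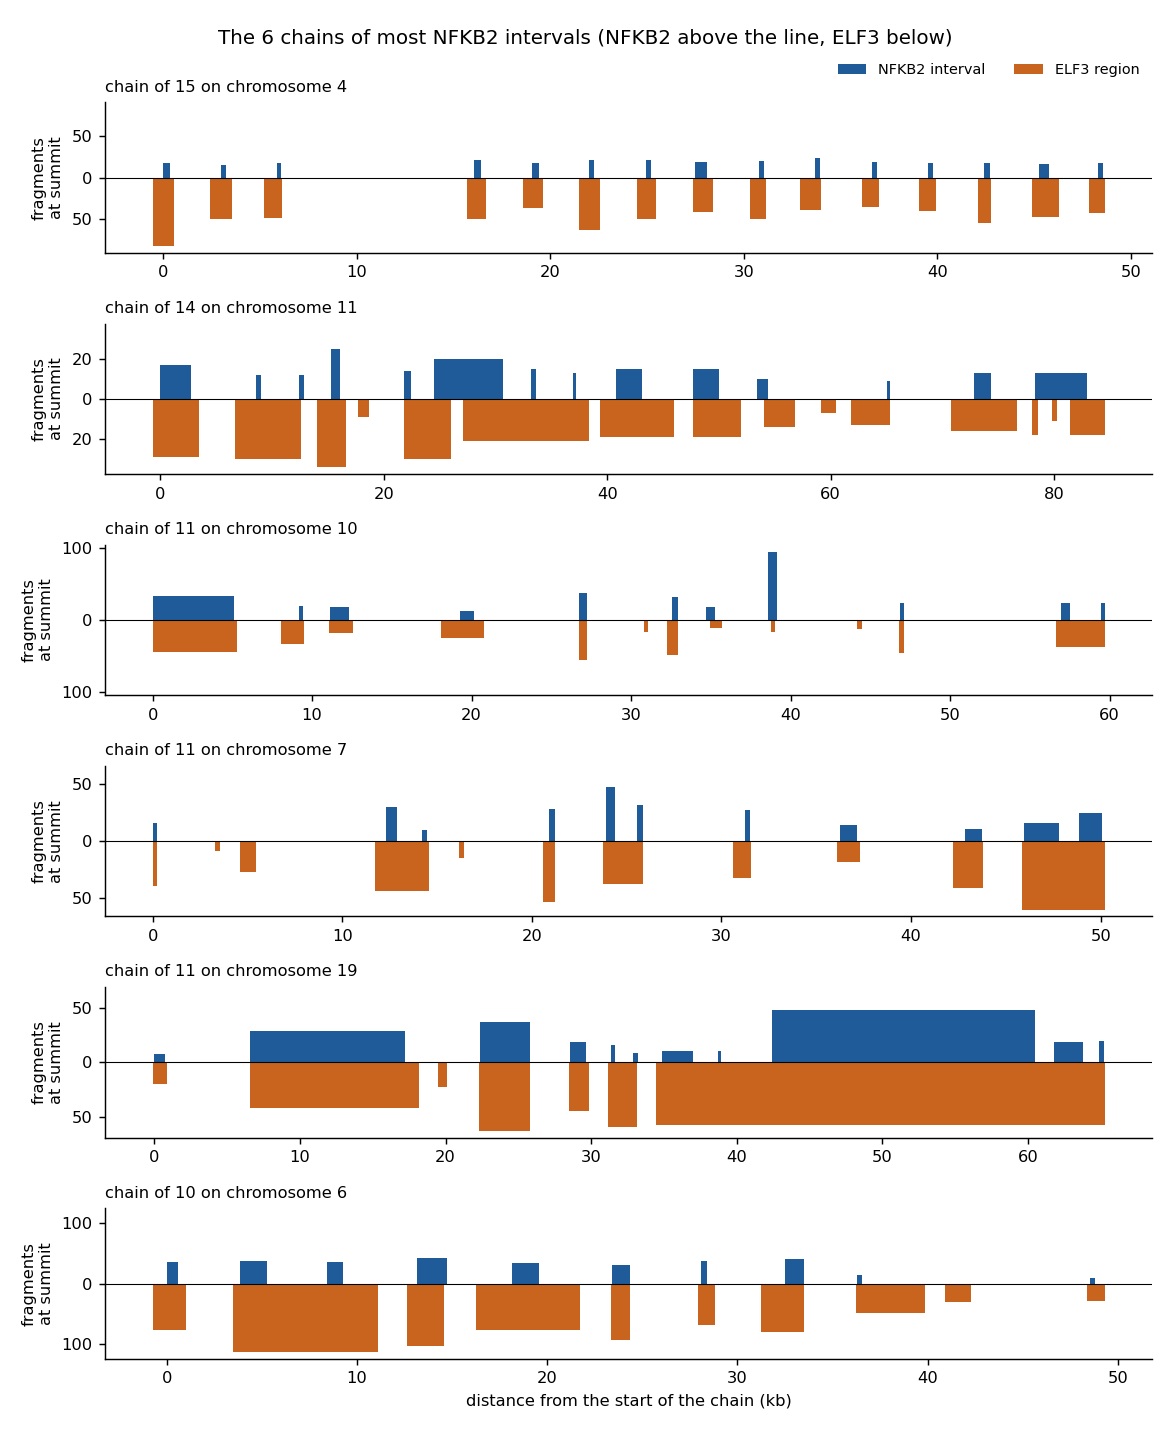
The 6 chains with most NFKB2 intervals, with distance from the start of the chain in kb and fragments at the summit as bar height, NFKB2 intervals above the line and ELF3 regions below it (bars as wide as the region, or 0.25 kb where that is narrower). The chain on chromosome 4 has 15 intervals at near-even spacing, and the one on chromosome 19 at 5836644 is largely filled by NFKB2 intervals (60.4% of its 65.2 kb).

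The chain with most intervals lay at chr4:88675869-88724419 (48.6 kb), with 15 NFKB2 intervals and 15 ELF3 regions, 1 under each. Its NFKB2 summits held, in order along the chromosome, 17, 15, 17, 21, 18, 21, 21, 19, 20, 23, 19, 17, 18, 16 and 18 fragments, and the ELF3 summits 82, 50, 49, 50, 37, 63, 50, 41, 50, 39, 35, 40, 54, 47 and 43. All values of NFKB2 lay between 15 and 23, and each was below its ELF3 value. The spacing between NFKB2 summits was nearly constant, with a median of 2919.5 bp and 13 of 14 spacings between 2847 and 3050 bp, the other being 10236 bp. NFKB2 and ELF3 summits lay 4 to 94 bp apart. Of the 15 intervals, 7 had a background at the floor and 4 had one of at least 2 times the floor, up to 3.05.

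Another evenly spaced chain lay at chr6:47631948-47662508, with 8 intervals of 24, 26, 25, 30, 30, 29, 30 and 24 NFKB2 fragments against 92, 92, 83, 74, 70, 88, 75 and 84 ELF3 fragments. The median spacing was 4312 bp, and 6 of 7 spacings lay between 4021 and 4448 bp. All 8 had a raised background, between 2.72 and 7.63 times the floor. Further along, at 47716599 to 47765394, stood a chain of 10 with 9 to 43 NFKB2 fragments and 29 to 113 ELF3 fragments, in which 9 intervals had a raised background. Both chains on chromosome 6 thus had a raised background at all or nearly all of their intervals.

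Chromosome 11 held the longest span, at 96160840 to 96243801, with 14 NFKB2 intervals over 83.0 kb. The NFKB2 summits there had 9 to 25 fragments and the paired ELF3 summits 13 to 34, low for both factors, and the median ratio was 0.674. Broad signal rather than strong summits marked the locus: ELF3 regions covered 66.9% of the span and NFKB2 intervals 28.9%. A background of 2.29 times the floor was found at 1 interval, and at the others it was lower.

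At chr10:80764470-80824148, 11 intervals covered 59.7 kb. Their NFKB2 fragments were 33, 20, 18, 13, 38, 32, 18, 95, 24, 23 and 24, and their paired ELF3 fragments 44, 33, 18, 25, 56, 49, 11, 16, 46, 37 and 37. The interval at 80803029 to 80803592 stood out, with 95 NFKB2 fragments over 16 ELF3 fragments, a ratio of 5.69 (exact 95% interval 3.33 to 10.4), the highest among chained intervals. Its 95% interval makes no allowance for its choice as the highest. The background was 2.29 times the floor for NFKB2 and 2.43 times for ELF3. A second chain on this chromosome, at 76944682 to 76988576, had 10 intervals of 10 to 51 NFKB2 fragments and a median ratio of 0.479.

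At chr19:5836644-5901844, 11 intervals of 8 to 48 NFKB2 fragments spanned 65.2 kb. It included the widest NFKB2 interval of all chains, 18082 bp with 48 fragments at its summit, inside an ELF3 region of 30848 bp. NFKB2 covered 60.4% of the span and ELF3 78.0%, with no raised background at any interval and a median ratio of 0.330. The NFKB2 summits inside the ELF3 region of 30848 bp lay 1794 to 23142 bp from its summit, so their ratios compare different places. This chain and that on chromosome 11 at 96160840 both held long intervals of moderate height, more so on chromosome 19.

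Several of the other large chains were made of separate, unequal summits. At chr7:19029825-19079889, 11 intervals held 10 to 48 NFKB2 fragments with a median ratio of 0.506, and at 16006838 to 16060393, 9 intervals held 10 to 51, the highest over an ELF3 region of 27 fragments with its summit 3499 bp away. The chain at chr17:71026982-71063043 was lower in NFKB2 relative to ELF3, with 9 intervals of 12 to 29 NFKB2 fragments over ELF3 regions of 77 to 95 and a median ratio of 0.225. The remaining chains of 9 lay at chr12:86898151-86946569, at chr11:35810702-35846759, and at chr19:37993152-38043412, where 8 of the 9 intervals were on ELF3.

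Of the 5 chains with the strongest summits at floor background, 4 held a single high interval among weaker neighbours. At chr8:71316053-71333502, the first interval had 180 NFKB2 fragments (exact Poisson 95% interval 155 to 208) over 84 of ELF3, a ratio of 2.05 (1.58 to 2.69), and the other intervals had 26, 13 and 18 over 16, 26 and 22. At chr14:76924696-76971030, the 6 intervals had 37, 166, 16, 22, 12 and 12 NFKB2 fragments over 58, 118, 28, 53, 10 and 43 of ELF3. At chr15:86073387-86085716, the intervals had 15, 133 and 14 NFKB2 fragments over 54, 364 and 22 of ELF3, so that the strongest NFKB2 interval stood on the strongest ELF3 region and was still well below it. At chr19:8960006-8975261, they had 126, 36, 12 and 29 over 60, 25, 25 and 59. In these 4 chains the top interval had at least 3 times the fragments of the next.

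The chains in which NFKB2 outweighed ELF3 were few. Of the 643 chains with 3 or more intervals on ELF3, the median ratio exceeded 1 in 28, and every paired interval exceeded 1 in 4, of which 2 had no raised background. The highest median ratio, 2.07, was at chr7:99078008-99091319, with 53, 21 and 136 NFKB2 fragments over 22, 35 and 63 of ELF3. There 2 of the 3 intervals exceeded 1, and the middle interval had a ratio of 0.575 and a background of 2.29 times the floor. At chr7:19549906-19577772, all 4 intervals exceeded 1, with 88, 81, 49 and 24 NFKB2 fragments over 38, 41, 43 and 19 of ELF3. At chr2:131333617-131352162, the intervals had 22, 24 and 48 NFKB2 fragments over 13, 32 and 27 of ELF3. At chr11:54846521-54863516, they had 62, 17, 57 and 26 over 32, 17, 15 and 22. The first interval of that chain had a background of 3.82 times the floor for NFKB2 and 4.06 times for ELF3. At chr2:165824561-165834606, counts were low in both libraries, 17, 13 and 18 over 11, 26 and 11, and the first interval had a background of 2.29 times the floor.

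**Figure D5:**
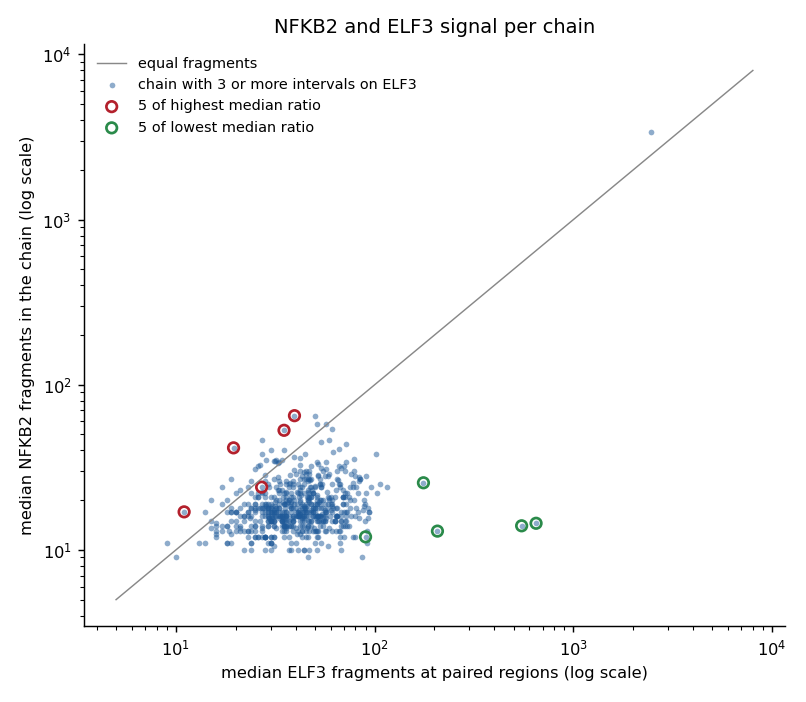
Median NFKB2 fragments against median paired ELF3 fragments per chain, on log axes, for the 643 chains with 3 or more intervals on ELF3, with a line at equal fragments before the depth correction and circles at the 5 chains of highest and the 5 of lowest median ratio. Most chains lie on the ELF3 side of the line, and the chain on chromosome 7 at 99078008 had the highest median ratio, 2.07.

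The 2 lowest ratios came from chains inside very large ELF3 regions. At chr13:23701157-23755618, 8 NFKB2 intervals of 11 to 21 fragments all lay in 1 ELF3 region of 89669 bp with 649 fragments at its summit, a median ratio of 0.0214. A short way on, at 23922807 to 23945514, NFKB2 intervals of 9, 12, 16 and 18 fragments lay in an ELF3 region with 549 fragments, a median ratio of 0.0244. At chr3:96170355-96185551, NFKB2 fragments of 13, 18 and 10 stood over ELF3 fragments of 207, 208 and 64. At 96127010 to 96154436 on the same chromosome, they were 17, 23, 28 and 31 over 181, 181, 171 and 171. In a broad ELF3 region, such as those on chromosome 13, the ELF3 summit can lie far from the NFKB2 interval. The distance reached 52172 bp among all chained intervals, and such a ratio compares different places in 1 region. The shortest span of all, 3141 bp at chr17:21693713-21696853, held 14, 12 and 10 NFKB2 fragments in 1 ELF3 region of 90 fragments.

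Of the 5 chains with a raised background at every interval, that on chromosome 6 is described above. At chr9:3000376-3038223, 7 intervals had 1532 to 9084 NFKB2 fragments and 954 to 6341 ELF3 fragments, over backgrounds of up to 4828 times the floor, and NFKB2 covered 76.4% of the span. The chains at chr3:3000152-3010511 and chr10:3060008-3066815 also had a raised background at every interval. The chain at chr8:21218768-21224341 had 26, 21 and 21 NFKB2 fragments, no ELF3 region, and backgrounds of 5.21 to 6.87 times the floor. The other chain without ELF3, at chr19:24890053-24895790, had 19, 12 and 11 NFKB2 fragments at backgrounds of 1.00 to 1.67 times the floor. Besides that on chromosome 9 and the 5836644 chain on chromosome 19, the spans most filled by NFKB2 were chr16:55629050-55643761 (65.1%), chr12:80145727-80162603 (62.2%) and chromosome 10 at 3060008 (60.4%).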

How the data were processed

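The authors deposited, per antibody, an interval list and a summit list, and MACS2 made the calls, per the submitters' processing notes. Each list belongs to 1 library. The aligner, the filters and the role of IgG in calling were not given in the sources used here. Although the notes name mm10, the lists contain sequence names of GRCm39, so no gene was assigned by position and no sequence was read. The deposited values used were the fold over background (a ratio), −log10 p and −log10 q values, the score, and the summit offset. From the fold and −log10 p, whole fragments and background at each summit were solved with the Poisson relation of the peak caller, for 100% of the intervals in both lists; this is a reconstruction of the counts and not a deposited one. Ratios of NFKB2 to ELF3 fragments were divided by 1.04, the ratio of the depths implied by the fragment worths and floor backgrounds. Library totals were not used here. Exact Clopper-Pearson, Poisson, binomial and order-statistic 95% intervals are given and no p-value. Each NFKB2 interval was paired with the overlapping ELF3 region of most fragments.

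Chains named were the 12 with most intervals, the 5 with most fragments at a floor-background summit, the 5 of highest and the 5 of lowest median ratio, and the 5 with most of their span covered. Chains outside this rule, with no ELF3, with even spacing or with raised background throughout, were added with their values in view. Members and lists were chosen with earlier results of these data known. Alternatives were other joining limits, chain sizes, thresholds, background limits, chromosomes and overlap definitions. Genes at chains and motifs at summits were planned and not run, for lack of a genome of the build of the files. Python 3.11.15, numpy 2.4.6, pandas 2.3.3 and scipy 1.17.1 were used, and the recovery was tested on simulated data.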

Additional observations from a re-analysis of the deposited data

Results flagged for a closer look

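The same rule applied outside chromosomes 1 to 19, which the comparisons did not use, gave 7 further NFKB2 chains with 29 intervals. On X there were 4, at 73287806 to 73298405, 159384063 to 159387515, 168769720 to 168795512 and 169077954 to 169097892, with 3, 3, 7 and 3 intervals. On Y there was 1 of 6 intervals, 3 of them on ELF3, at 90771656 to 90796342, and 2 lay on unplaced sequences, with 3 and 4 intervals. The unplaced chain of 4 reached 2527 NFKB2 fragments at backgrounds of 24.8 to 1186 times the floor. The X chain at 169077954 had backgrounds of 16.8 to 18.3 times the floor. No background list from IgG was used here, and whether IgG entered the calling is not given, so these values were not checked against a separate control.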

How the results depend on the processing

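Of 55 values under alternative settings, 30 were taken as unmoved, within 1.5 times the main count of chains or intervals or within the 95% interval of another main value, and 25 moved. The number of chains (675) was 259 with a joining limit of 5000 bp, 1086 with 25000 bp, 261 with at least 4 intervals and 369 with −log10 q of 5 or more. Chained intervals (2562) numbered 892, 4694, 1320 and 1331 under the same settings. With background under 2 times the floor, with X added and with gaps taken between summits there were 574, 679 and 647 chains with 2141, 2578 and 2430 intervals. ELF3 regions per chain (4) were 3, 5, 5 and 3. The share on ELF3 (97.6%) was 96.9% at 5000 bp, 94.3% with background under 2 times the floor, 96.6% when 50% of the shorter had to overlap, and 66.4% when summits had to lie within 100 bp. At 5000 bp it did not exceed that of the other intervals, also 96.9%. The share with summits within 100 bp among those on ELF3 (68.0%) was 61.1% at 5000 bp, 70.8% at 25000 bp, 72.6% with the q limit and 74.7% for intervals alone on their ELF3 regions; settings for this share were added after seeing the data. Median fragments (17) were 21 with the q limit. The median ratio (0.447) was 0.432 at 25000 bp, 0.479 with at least 4 intervals, 0.479 for intervals alone on their ELF3 regions and 0.490 with the q limit, and exceeded that of the other intervals under each setting run, whose values were 0.365 to 0.393. No paired analysis was possible because there is 1 library per antibody, and no replicate could be left out. NFKB2 intervals at the floor rested on as few as 8 fragments, so neighbours just under the calling threshold are not in the list.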
